A study of Mus musculus with 7 samples.

Results

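The strong accessible regions of mouse liver that lie away from transcription start sites (TSSs) were examined in assay for transposase-accessible chromatin sequencing (ATAC-seq) data, in which the transposase cuts open DNA and the reads over a region measure how accessible it is. Members were selected by 2 criteria. A region had to belong to the top 10 percent of all regions by its mean CPM (reads in the region scaled by the library's total in all regions) over all 7 libraries, and both of its ends had to lie over 5000 bp from every TSS in GENCODE M21 on the GRCm38 build. Of 55680 regions, 5568 formed the strongest 10 percent and 608 of these qualified, while the other 4960 strong regions lay near a TSS. Because the level and the distance chose the members, both are given as descriptions without a test. The weakest 3 members had mean CPM of 46.31, 46.30 and 46.26, and the strongest 3 distal regions left out had 46.24, 46.23 and 46.22.

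The libraries came from liver of male C57BL/6N mice without any genetic change or treatment, 3 samples at 3 months (young) and 4 at 18 months (aged). Nuclei were isolated from pieces of whole liver and tagmented by the Omni-ATAC protocol. The deposited design traces the 4 aged samples to 3 animals, of which 1 gave samples from 2 lobules, and does not say which aged replicates these are. The p-values below treat all 4 as separate animals and may therefore be too small. In bulk tissue, fewer nuclei of a cell type and lower accessibility per nucleus cannot be told apart.

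Enhancers are stretches of DNA, often far from the genes they act on, where transcription factors bind and displace nucleosomes, so that active ones are accessible. In hepatocytes such elements are typically bound by liver-enriched factors such as HNF4A, FOXA, C/EBP and HNF1 and by nuclear receptors that form dimers with RXRA. Most vertebrate enhancers are poor in CpG dinucleotides, whereas many promoters lie in CpG islands. No histone mark was used here, so the regions are called strong distal regions and not enhancers, and the gene named for each is the protein-coding gene with the nearest TSS, which need not be its target.

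Stretches of 6 of the regions on which the results turn are shown first, from the GRCm38.p6 sequence of RefSeq, forward strand, 5′ to 3′. The first 4 come from the distal regions with the largest increases in aged liver among those in which all aged samples exceeded all young ones, the fifth from the second strongest region, and the last from a strong region that fell. Except in the last, each is the 200-base stretch outside annotated exons with the most matches to motifs of liver factors, and the capitals mark those matches: AGGTCA (nuclear receptor half-site), TGANTCA (AP-1), TTGCNNAA (C/EBP) and GTTAATNAT (HNF1), on either strand. The letters used for HNF4 (CAAAGTCCA) and FOXA (TGTTTAC) were searched too and did not fall in these stretches.
Scd1 region, chr19:44389072-44389271: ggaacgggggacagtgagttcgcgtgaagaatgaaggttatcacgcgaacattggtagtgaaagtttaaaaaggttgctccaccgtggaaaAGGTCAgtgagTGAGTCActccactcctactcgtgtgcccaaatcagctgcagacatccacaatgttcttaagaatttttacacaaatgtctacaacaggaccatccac
5830473C10Rik region, chr5:90567980-90568179: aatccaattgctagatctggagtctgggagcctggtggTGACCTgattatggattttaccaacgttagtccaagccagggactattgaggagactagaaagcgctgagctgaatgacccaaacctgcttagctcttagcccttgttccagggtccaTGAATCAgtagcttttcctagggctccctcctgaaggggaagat
Adcy1 region, chr11:7153178-7153377: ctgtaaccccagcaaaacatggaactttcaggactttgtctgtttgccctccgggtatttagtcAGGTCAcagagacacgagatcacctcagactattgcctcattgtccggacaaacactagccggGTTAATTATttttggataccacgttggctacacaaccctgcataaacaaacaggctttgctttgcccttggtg
Onecut1 region, chr9:74671629-74671828: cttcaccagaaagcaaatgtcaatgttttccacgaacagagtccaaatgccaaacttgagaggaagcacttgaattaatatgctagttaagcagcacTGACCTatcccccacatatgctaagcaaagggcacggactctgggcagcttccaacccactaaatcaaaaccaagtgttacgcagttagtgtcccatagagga
Ass1 region, chr2:31483733-31483932: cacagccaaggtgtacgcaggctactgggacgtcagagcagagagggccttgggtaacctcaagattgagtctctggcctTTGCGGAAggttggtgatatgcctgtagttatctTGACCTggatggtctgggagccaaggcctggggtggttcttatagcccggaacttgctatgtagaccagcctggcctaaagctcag
2700054A10Rik repeat region, chr17:13550676-13550875: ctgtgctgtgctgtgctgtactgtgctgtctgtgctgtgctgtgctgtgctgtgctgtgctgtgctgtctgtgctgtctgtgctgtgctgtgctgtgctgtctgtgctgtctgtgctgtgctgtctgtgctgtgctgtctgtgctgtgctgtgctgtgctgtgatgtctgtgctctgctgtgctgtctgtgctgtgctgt
In the last stretch, which is the start of its region, no motif matched and the bases repeat ctgtg in tandem.

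The strong distal regions were broad, CpG-poor and mostly intronic or intergenic. Their median length was 2233 bp, against 1818 bp for strong regions near a TSS and 728 bp for weaker distal regions. The CPM that chose the members were not divided by length, so the choice itself favours long regions. Per kb, the median of the mean CPM was 28.0 in members, 38.3 in strong regions near a TSS and 8.70 in weaker distal regions. By their first overlap with the annotation, 250 members (41.1%) were intergenic, 242 (39.8%) intronic, 64 (10.5%) touched an untranslated region (UTR) and 52 (8.55%) another exon. The median distance to the nearest TSS of any gene was 11459 bp. In 374 members the nearest TSS of any kind belonged to the same gene as the nearest protein-coding one, and in 234 it belonged to another gene, most often a lincRNA (76), a processed pseudogene (53) or an antisense RNA (31). The ratio of observed to expected CpG had a median of 0.23 in the members, near the 0.20 of weaker distal regions, while strong regions near a TSS had 0.69. Only 41 members (6.74%) had a ratio over 0.6, a level typical of CpG islands. Median GC content was 49.9% in the members and 58.3% in strong regions near a TSS.

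**Figure D1:**
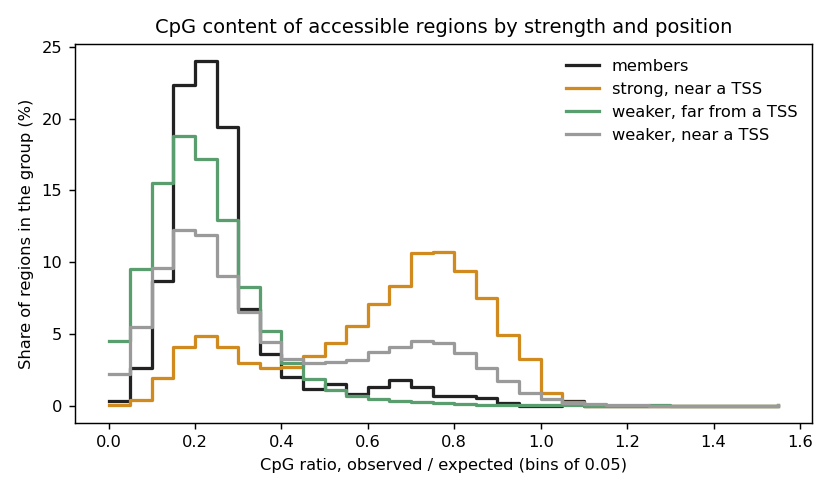
Distribution of the CpG ratio (observed over expected CpG, x axis, bins of 0.05) as a share of the regions in each group (y axis, %), for the 608 members and for strong regions near a TSS, weaker regions far from a TSS and weaker regions near a TSS. The members peak near 0.2 together with the weaker distal regions, while the strong regions near a TSS peak between 0.7 and 0.8.

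The distance of the members depended on the annotation. With the transcript starts of RefSeq, which include predicted transcripts, 143 of the 608 members (23.5%) lay within 5000 bp of a start and 72 held one inside. The Slc45a1 region below is one of these 72. Leaving out the 143 members left 465, of which 66 rose and 1 fell with age by the test described below. Of all 608 members 81 rose and 3 fell, and of all regions 2.44% rose and 3.3% fell.

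Matches to short motifs were counted in the central 300 bases of each region, on both strands. Letters for the nuclear receptor half-site were found in 24.5% of the members, 12.7% of strong regions near a TSS, 27.8% of weaker distal regions and 23.8% of all regions. The C/EBP letters were found in 11.02% of members, 7.0% of strong regions near a TSS, 17.8% of weaker distal regions and 14.6% of all regions. In the same order the AP-1 letters were found in 8.39%, 4.05%, 11.1% and 9.22%, and the FOXA letters in 5.76%, 2.4%, 7.55% and 5.93%. GGGCGGG, the GC box bound by SP factors, was found in 7.57% of members, 35.7% of strong regions near a TSS and 11.5% of all regions, and the ETS letters CCGGAAGT in 0.493%, 2.88% and 1.46%. The CACGTG E-box was found in 4.77% of members and 5.83% of all regions, the HNF4 letters in 1.32% and 1.40%, the HNF1 letters in 0.658% and 1.45%, and the CTCF consensus in 0.658% and 1.87%. The shares of the nuclear receptor, C/EBP, AP-1 and FOXA letters in the members thus lay between those of strong regions near a TSS and of weaker distal regions, and those of the GC box and ETS letters lay below those of strong regions near a TSS. These are descriptions without a test. Matches of different motifs may share bases. Because the members are broad, their midpoints need not be where the factors bind. Over whole regions the half-site occurred 1.02 times per kb in members, 0.647 in strong regions near a TSS and 1.01 in weaker distal regions.

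The depth behind the members was high. Total counts in regions ranged from 5709327 to 25461110 in young and from 4474652 to 11717992 in aged libraries. The lowest count of any member in any library was 43, and the median count of the members was between 279 and 1392. Promoter regions (TSS ± 200 bp) served as a check of the tissue. All 10 hepatocyte marker genes had an accessible promoter region, with summed levels of 773 to 900.1 CPM in young and 951 to 1154 CPM in aged libraries. Of 12 markers of Kupffer cells, the macrophages of the liver, 2 had one, with 7.29 to 9.16 CPM in young and 3.33 to 6.87 CPM in aged. Of 12 markers of stellate cells and fibroblasts, 4 had one, with 27.8 to 30.9 CPM in young and 17.1 to 25.04 CPM in aged. The summed levels of these 3 lists did not overlap between ages, as was so for 10.2% of single regions with higher and 11.6% with lower aged values. Of the promoters themselves, 2 of the 10 hepatocyte ones rose by the test described below and 0 of the Kupffer and stellate ones passed it. Over all regions 2.44% rose and 3.3% fell, and 11.6% of strong regions near a TSS rose, so these counts are too few to read. The 9 of 12 sinusoidal endothelial, 4 of 9 cholangiocyte, 1 of 14 lymphocyte and 1 of 10 non-liver markers with a promoter region overlapped between ages, and the defining markers Adgre1, Csf1r, Ptprc, Cd3e, Krt19 and Pdgfrb had none. None of the members lay nearest to a marker of the other cell types listed, while 10 lay nearest to hepatocyte markers.

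In aged liver the strong distal regions were more accessible as a group. Their median level in log2 CPM was 5.71, 5.72 and 5.73 in the young libraries and 5.92, 5.92, 6.03 and 6.09 in the aged ones, so that every aged library exceeded every young one. The median log2 fold change of aged over young was 0.28 in the 608 members, against −0.04 over all regions, and 546 members (89.8%) had a value above 0. By edgeR's quasi-likelihood test with Benjamini-Hochberg adjustment over all 55680 regions at 0.05, 81 members (13.3%) rose and 3 (0.493%) fell, where 2.44% of all regions rose and 3.3% fell. The balance over all regions depended on the tool and scaling, with 1360 up and 1838 down by edgeR and 2760 and 1931 by DESeq2. It was 3593 and 2040 with offsets on GC content and 543 and 2931 with total counts. Members rose more often than they fell in each of these 4. With offsets on mean level, by contrast, 2 members rose and 6 fell, and 249 of all regions rose and 425 fell. All aged samples lay above all young samples in 222 members (36.5%) against 10.2% of all regions, and below them in 3 members (0.493%) against 11.6%. The level that chose the members was a mean over both ages, so a region could qualify through the age in which it was higher. Of the 608, 487 reached the level in each age taken alone, and 101 reached it only in aged and 20 only in young samples. The 101 held 29 of the 81 increases and the 20 held 2 of the 3 decreases, and as these regions had to differ, their counts support nothing. Of the 487, 52 (10.7%) rose and 1 fell, with a median log2 fold change of 0.25, beside 10.8% that rose and a median of 0.27 in the 4556 strong regions near a TSS chosen in this way, a choice made after the data were seen. The number of members that rose depended on single libraries. It was 3 without young replicate 1, 9 without aged replicate 1, 13 without young replicate 2 and 14 without aged replicate 3, and the largest value, 111, was reached without aged replicate 2. The median log2 fold change moved only between 0.25 and 0.31 over the 7 fits that left out a library.

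The age difference of the members was close to that of strong regions near a TSS and unlike that of weaker regions also over 5000 bp from a TSS. Strong regions near a TSS had a median log2 fold change of 0.28, and 573 of 4960 (11.6%) rose while 12 fell. Their median differed from that of the members by 0.00066 on the log2 scale, where the difference between both medians varied by 0.058 (SD, pooled within age) among libraries. Weaker distal regions had a median of −0.10, with 357 of 27003 (1.32%) up and 996 down, and weaker regions near a TSS had −0.07. Offsets that remove any trend of the fold change with mean level lowered the median of the members to 0.025 and left 2 that rose and 6 that fell, a share of 25% of calls upward in place of 96.4%. Scaling by total counts in regions shifted the median of all regions by −0.12, gave the members a median of 0.16 and left 34 that rose and 4 that fell, an upward share of 89.5%. Relative to the median of all regions the members stood 0.31 higher with total counts, as in the reported fit. Both scale all regions of a library by the same factor, so this agreement is no check of the result. With offsets on mean level the members stood 0.014 higher. The hepatocyte, Kupffer and stellate promoter levels given above moved with age as well, and their part in the result was not tested.

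**Figure D2:**
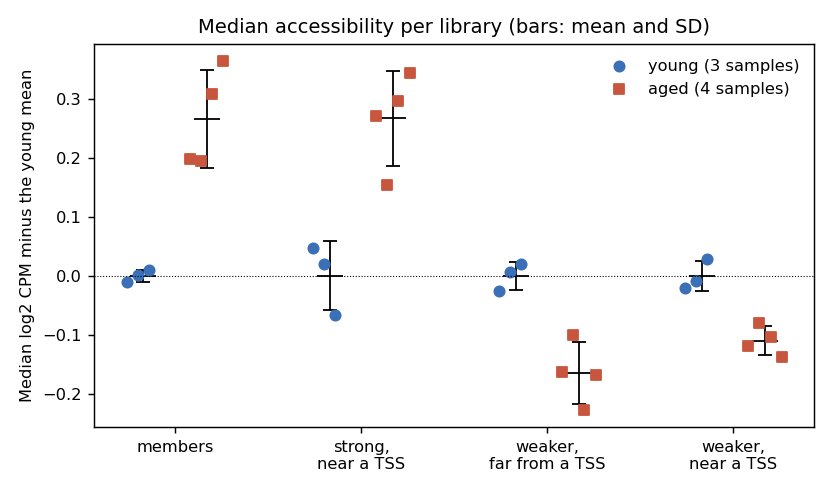
Median log2 CPM of 4 groups of regions in each library minus the mean of the 3 young libraries (y axis), with circles for young and squares for aged samples and bars for the mean and SD. In members and in strong regions near a TSS all 4 aged samples lie above all young samples, and in both weaker groups they lie below.

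**Figure D3:**
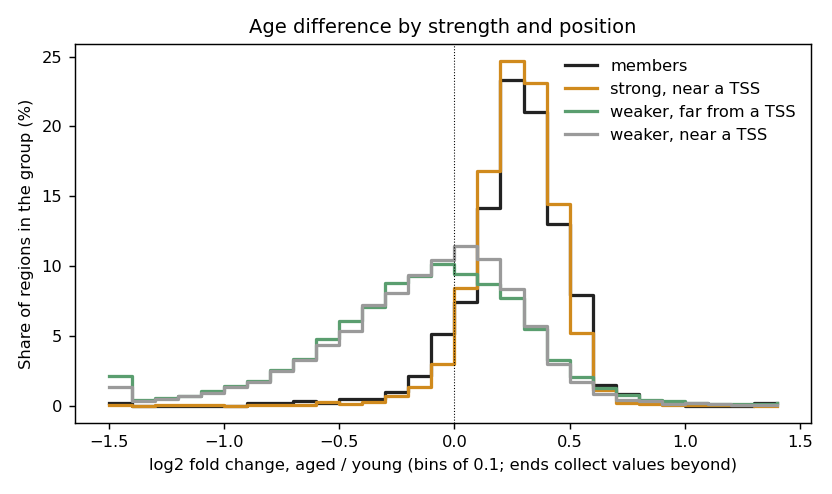
Distribution of the log2 fold change of aged over young (x axis, bins of 0.1, end bins collect values beyond) as a share of each group (y axis, %). The members and the strong regions near a TSS nearly coincide around their medians of 0.28, and the 2 weaker groups are broader and centred below 0.

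Among the members themselves, the median age difference varied about as much with position as with length. The median log2 fold change was 0.28 in the 250 intergenic, 0.28 in the 242 intronic and 0.28 in the 52 exonic members, and 0.21 in the 64 members that touched a UTR, of which 49 were above 0. It was 0.26 in the 268 members at 5000 to 10000 bp from a TSS, 0.28 in the 236 at 10000 to 25000 bp and 0.29 in the 99 at 25000 to 100000 bp. The 5 members beyond 100000 bp had a median of 0.19, and 0 of them passed the test. By length, the shortest members, up to 1883 bp, had a median of 0.30, with 32 up and 0 down, and the longest, from 2587 bp, had 0.24, with 18 up and 2 down. Members with a CpG ratio over 0.6 had a median of 0.26 and the other 567 had 0.28. Among members with the letters of a motif anywhere in the region, the share that rose ranged over the 10 motifs from 7.14% of 28 for CTCF to 18.6% of 59 for HNF1, and among those without them from 12.4% of 299 for AP-1 to 17.4% of 92 for the nuclear receptor half-site. With the half-site it was 12.6% of 516, with the AP-1 letters 14.2% of 309, and without the HNF1 letters 12.8% of 549. None of these differences was tested.

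The strongest members lay at genes of very different roles. The first was an 8055 bp region at chr4:150865245-150873299, 10172 bp downstream of the TSS of Errfi1, a feedback inhibitor of the epidermal growth factor receptor. It measured 416, 594 and 641 CPM in young and 567, 459, 758 and 618 CPM in aged samples. The groups overlapped, and the log2 fold change was 0.13 ± 0.18 (SE, adjusted p = 0.70, edgeR). The second, at chr2:31482044-31487055 nearest to Ass1, which encodes a urea cycle enzyme, measured 203.6, 251 and 200.3 CPM in young and 148, 178, 238 and 340 CPM in aged samples. Here too the groups overlapped, and the sign of the fold change of 0.05 ± 0.22 turned with the setting. Per kb of length, the strongest 10 ranged from 35.6 mean CPM in the Slc45a1 region to 454 in a 441 bp region nearest to Lars2, the mitochondrial leucyl-tRNA synthetase. The Lars2 region had a log2 fold change of 0.37 ± 0.22, and a 527 bp region nearest to Gtpbp4, a GTPase of ribosome assembly, had 305 mean CPM per kb and 0.16 ± 0.21. The regions nearest to Trpm8 (0.27 ± 0.13), Wdr5 (0.45 ± 0.16) and Sdc4 (0.54 ± 0.19) also missed the threshold of 0.05.

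Of the 10 strongest, 2 rose and 1 fell, too few to set against the 13.3% and 0.493% of all members or the 2.44% and 3.3% of all regions. The region nearest to Slc45a1, at chr4:150705831-150710544, measured 117, 139.5 and 147 CPM in young and 176, 169, 213 and 222 CPM in aged samples. All aged samples were higher, and the log2 fold change was 0.54 ± 0.13 (adjusted p = 0.032, edgeR). This call was lost in 9 of 22 alternatives, which were leaving out young replicates 1 or 2 or aged replicates 1 or 3, summing aged replicates 1 and 3 or 3 and 4, thinning all libraries to the smallest total, a minimum of 10 counts in every sample, and offsets on mean level, where the log2 fold change was 0.12 (adjusted p = 0.67, edgeR). The region at chr12:104343540-104348529, 5054 bp downstream of the TSS of Serpina3k, a secreted protease inhibitor, measured 25.3, 80.5 and 105 CPM in young and 400.2, 87.3, 274 and 388 CPM in aged samples. Aged replicate 2 lay within the range of the young samples, so the groups overlapped, although the region had the largest log2 fold change of the members, 2.05 ± 0.47 (adjusted p = 0.025, edgeR). Leaving out any of the same 4 libraries ended this call too, as did summing aged replicates 1 and 3, thinning and offsets on mean level, although the log2 fold change stayed between 1.62 and 2.43 over the 22 alternatives. It overlaps both Serpina3k and Serpina3m, members of a duplicated gene cluster, and reads from one copy could be placed in another. The region that fell, at chr17:13550676-13553176 in the non-coding gene 2700054A10Rik, was the repeat shown above, with 97.8% of its bases masked as repeats. It measured 376, 326 and 114 CPM in young and 72.9, 69.2, 65.4 and 121 CPM in aged samples. Young replicate 3 lay below the highest aged sample, and the log2 fold change was −1.73 ± 0.31 (adjusted p = 0.012, edgeR), a call that was lost without young replicate 1 or aged replicate 1. In all, 7 members were masked over more than 50% of their length, 4 others had a copy at another place (at least 80% of the region at 95% identity), and 0 matched the mitochondrial genome. Without these 11 members, 80 rose and 2 fell. The regions nearest to Gtpbp4, Pigyl and Slco1b2 are among the 7, with 55.6%, 54.7% and 67.6% of their bases masked.

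The largest increase without overlap between ages was that of the region nearest to Scd1. Of the increases described next, the Onecut1, Ppp1r3b, Tbc1d7 and Arl15 regions reached the level for members only in aged samples, so that each had to be higher in these to be a member, and the Scd1, 5830473C10Rik and Adcy1 regions passed it in young samples by under 1 CPM, at 46.6, 46.5 and 46.8 CPM without TMM scaling. The region at chr19:44387465-44389917, 16773 bp from the TSS of Scd1, the desaturase that makes monounsaturated fatty acids, measured 44.2, 51.1 and 38.1 CPM in young and 80.8, 103, 78.0 and 77.0 CPM in aged samples. All aged values exceeded all young ones, and the log2 fold change was 0.91 ± 0.14 (adjusted p = 0.0071, edgeR). The promoter region of Scd1 itself, which is no member, rose as well, by 1.08 ± 0.21 on the log2 scale (adjusted p = 0.014, edgeR). Next came an intergenic region at chr9:74671302-74673324, for which Onecut1, the gene of the liver factor HNF6, was the nearest protein-coding gene at 188597 bp. It measured 28.0, 40.4 and 30.9 CPM in young and 57.2, 51.4, 68.4 and 56.9 CPM in aged samples. The log2 fold change was 0.80 ± 0.14 (adjusted p = 0.012, edgeR), and the promoter region of Onecut1 rose by 0.88 ± 0.16.

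An intronic region at chr5:90567367-90569176 in 5830473C10Rik measured 46.0, 42.9 and 44.1 CPM in young and 81.1, 59.0, 85.2 and 79.0 CPM in aged samples. Its young values were close together and all lay below the lowest aged value, with a log2 fold change of 0.78 ± 0.13. The region at chr11:7151664-7153758 in an intron of Adcy1, an adenylyl cyclase, measured 38.9, 52.8 and 42.3 CPM in young and 71.0, 57.5, 75.2 and 92.4 CPM in aged samples. Aged replicate 2 came nearest to the young samples here, and the log2 fold change was 0.72 ± 0.16. A region at chr8:35205211-35207002, 168737 bp from Ppp1r3b, whose protein directs a phosphatase to glycogen, measured 41.5, 44.8 and 43.4 CPM in young and 69.1, 71.4, 63.7 and 67.3 CPM in aged samples. Both groups were tight, and the log2 fold change was 0.65 ± 0.10 (adjusted p = 0.0090, edgeR), and the promoter region of Ppp1r3b rose by 0.52 ± 0.11. Of the other large increases, 4 lay nearest to Tbc1d7 (a subunit of the TSC complex that restrains mTORC1, 0.71 ± 0.13), Arl15 (a small GTPase, 0.65 ± 0.13), Pigyl (0.64 ± 0.12) and Wdr45b (an autophagy protein, 0.61 ± 0.12). In the Tbc1d7 case the region itself lies in an intron of Gfod1. Of the Pigyl region, 54.7% of the bases were masked as repeats. Over 22 alternatives the Scd1 and 5830473C10Rik regions kept their call in each. The other 7 regions of these 9 lost it without young replicate 1, the Arl15, Pigyl and Wdr45b regions also without young replicate 2, the Adcy1, Tbc1d7, Arl15, Pigyl and Wdr45b regions without aged replicate 1, and the Adcy1 and Wdr45b regions without aged replicate 3 and with aged replicates 1 and 3 summed. The Adcy1, Tbc1d7, Pigyl and Wdr45b regions lost it after thinning. All 7 also lost it with the offsets on mean level, where their fold changes stayed above 0.

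Of the 3 members that fell, 2 did so without overlap between ages. Both reached the level for members only in young samples, so that each had to be higher in these to be a member. The region at chr11:99052824-99055683, 5513 bp downstream of the TSS of Igfbp4, which encodes a binding protein for insulin-like growth factors, measured 70.5, 71.3 and 80.9 CPM in young and 42.3, 50.2, 51.4 and 41.7 CPM in aged samples. Every aged sample was lower, and the log2 fold change was −0.68 ± 0.12 (adjusted p = 0.011, edgeR), and the call held in each of the 22 alternatives. The promoter region of Igfbp4 had a log2 fold change of 0.22 ± 0.13 and did not pass the test (adjusted p = 0.30, edgeR). The other, an intergenic region at chr9:123923503-123926290 and 42402 bp from Ccr1, a chemokine receptor gene, measured 72.7, 58.2 and 63.1 CPM in young and 40.7, 38.4, 46.7 and 51.0 CPM in aged samples. Its log2 fold change was −0.55 ± 0.13 (adjusted p = 0.027, edgeR), and the call was lost without young replicates 1 or 2 or aged replicates 1 or 3, with aged replicates 1 and 2 or 1 and 3 summed and after thinning (adjusted p up to 0.12 over the 22 alternatives).

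**Figure D4:**
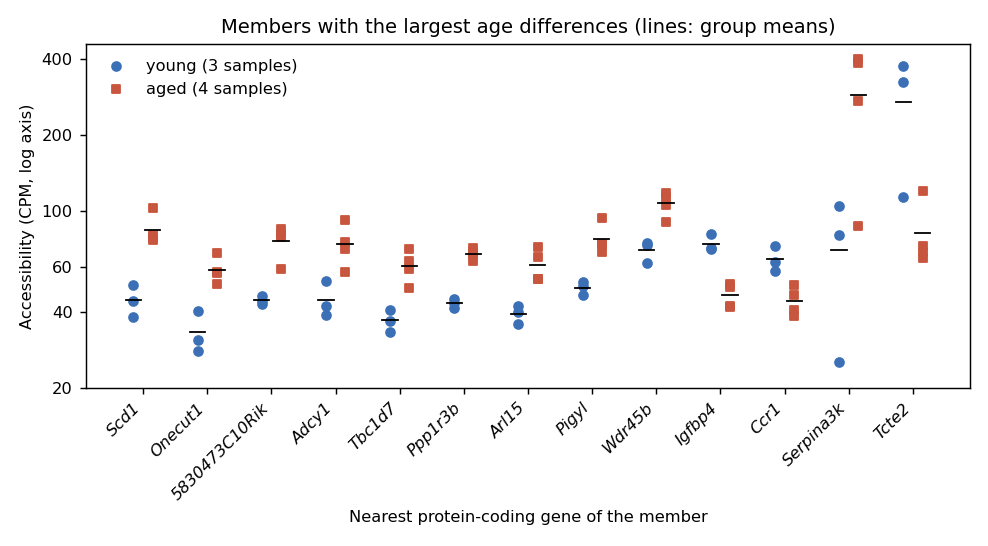
Accessibility in CPM (y axis, log scale) in each young sample (circles) and aged sample (squares), with lines for group means, for 9 of the 10 largest increases and both decreases without overlap between ages, the Serpina3k region and the repeat region whose nearest coding gene is Tcte2. In the first 11 the groups are separate, and in the last 2 they overlap, with aged replicate 2 low at Serpina3k and young replicate 3 low at the repeat.

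The members nearest to genes of liver functions mostly followed the median of all members. These gene lists cover liver functions in general. Of 17 members nearest to 12 liver transcription factor genes, 3 rose and 0 fell, where 13.3% of all members and 2.44% of all regions rose, with a median log2 fold change of 0.24 beside 0.28 in all members and −0.04 over all regions. The strongest lay near Ppara, the receptor that drives fatty acid oxidation (0.23 ± 0.11), Nr1i2, the xenobiotic receptor PXR (0.52 ± 0.14, adjusted p = 0.042, edgeR), and Rxra (0.24 ± 0.15), and of these the Nr1i2 region rose. That call was lost in 14 of 22 alternatives, among them leaving out any single library but aged replicate 2 and summing aged replicate 3 with any other, and with offsets on mean level the log2 fold change was 0.17 (adjusted p = 0.53, edgeR). The other 2 that rose were the Onecut1 region above, which reached the level only in aged samples, and one near Nr2f2, an orphan nuclear receptor gene (0.56 ± 0.13). The Nr2f2 region, with a mean of 50.6 CPM over all 7 libraries, lay little above the 46.26 CPM of the weakest member. As all its aged samples exceeded all young ones, the calls of these 2 regions are read as no result about the list. Of 13 members nearest to lipid and cholesterol genes, 2 rose, 0 fell and all 13 had a value above 0, with a median of 0.24, where 13.3% of all members rose and 89.8% were above 0, so the list is close to the members as a whole. Beside the Scd1 region, the other that rose was at chr9:77910138-77912029, 5335 bp from Elovl5, a fatty acid elongase. It measured 74.8, 73.0 and 62.5 CPM in young and 103, 102, 99.5 and 118 CPM in aged samples. Its log2 fold change was 0.59 ± 0.11 (adjusted p = 0.015, edgeR), and the call was lost without young replicates 1 or 2 or aged replicate 1, after thinning and with offsets on mean level. The 2 strongest of the lipid list, both nearest to Dgat2, which makes triglycerides, had 0.09 ± 0.13 and 0.13 ± 0.12.

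Glucose and insulin genes had 10 members, of which the Ppp1r3b region above rose and the Igfbp4 region fell, and the median was 0.30. Both had qualified only through the age in which they were higher, so these calls are read as no result about the list, and over all regions 2.44% rose and 3.3% fell. The strongest 2 of that list had 0.32 ± 0.30 near G6pc, the glucose-6-phosphatase, and 0.72 ± 0.23 in another region near Ppp1r3b. Genes of amino acid metabolism and the urea cycle had 19 members, 5 of them at Cps1 and 4 at Ass1, and 1 rose, a region nearest to Arg1, the arginase (0.57 ± 0.11). The strongest of the list other than the first Ass1 region were another at Ass1 (0.03 ± 0.23) and one at Slc7a2, a cationic amino acid transporter (0.30 ± 0.20). Plasma protein genes had 12 members with a median of 0.12. Only the Serpina3k region rose, 5 of the 12 had a value below 0, and the next strongest lay near Ahsg (0.17 ± 0.14) and Afp (−0.50 ± 0.26). Genes of bile acids and xenobiotics had 5 members and 0 passed the test, with a median of 0.09 and the strongest near Cyp2e1 (0.18 ± 0.26), Slc22a7 (0.00 ± 0.17) and Slco1b2 (−0.04 ± 0.16).

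The lists of clock, stress and cytokine genes held few members, and their counts are to be read beside the 13.3% of all members that rose. Clock genes had 5 members, of which 0 passed, and the strongest were near Hlf (−0.02 ± 0.15), Cry2 (0.06 ± 0.12) and Tef (0.20 ± 0.16), all transcriptional regulators of the circadian clock or its output. Stress and immediate early genes had 12 members, 5 of them near Errfi1, and 0 passed, with all 12 above 0 beside 89.8% of all members and a median of 0.30. Beside Errfi1 the strongest lay near Gadd45g (0.64 ± 0.21) and Klf11 (0.26 ± 0.11). Genes of inflammation and cytokine signalling also had 12 members, which include the 5 near Errfi1, and 1 rose, near the interferon regulatory factor gene Irf2 (0.53 ± 0.14). The median was 0.32, with 0.34 ± 0.12 and 0.24 ± 0.16 in the regions near Smad7, an inhibitor of TGF-β signalling. The 10 members near hepatocyte markers had a median of 0.26, and 0 of them passed the test. The strongest of these beside Cyp2e1 were at Ttr, the thyroxine carrier (0.40 ± 0.28), and Cps1 (0.13 ± 0.24).

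Some strong distal regions lay close to each other. When members up to 50 kb apart were joined, 194 of the 608 (31.9%) shared one of 79 loci with at least 1 other member, and 9 loci held 4 or more. The 3 largest held 6 each. One spanned 67.3 kb between Wdr5 and Rxra and another 116 kb between Slc45a1 and Errfi1. In each 1 of the 6 rose, where 13.3% of all members and 2.44% of all regions rose, so these counts are too few to read. The third lay in Ttc39c, where 5 of 6 had a value below 0, from −0.41 to 0.34, and 0 passed the test. The 5 members at Cps1, which encodes the first enzyme of the urea cycle, ranged from 0.13 to 0.48 and the 4 at Ass1 from 0.03 to 0.17, with 0 passing in either. A second group of 3 members within and beyond Rxra ranged from −0.29 to 0.06, whereas the 6 upstream of it ranged from 0.07 to 0.49. At Zbtb16, a transcriptional repressor gene, the 4 members had the highest median of the 9 loci, 0.42, but wide errors, and 0 passed. Differences within and between loci were not tested.

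**Figure D5:**
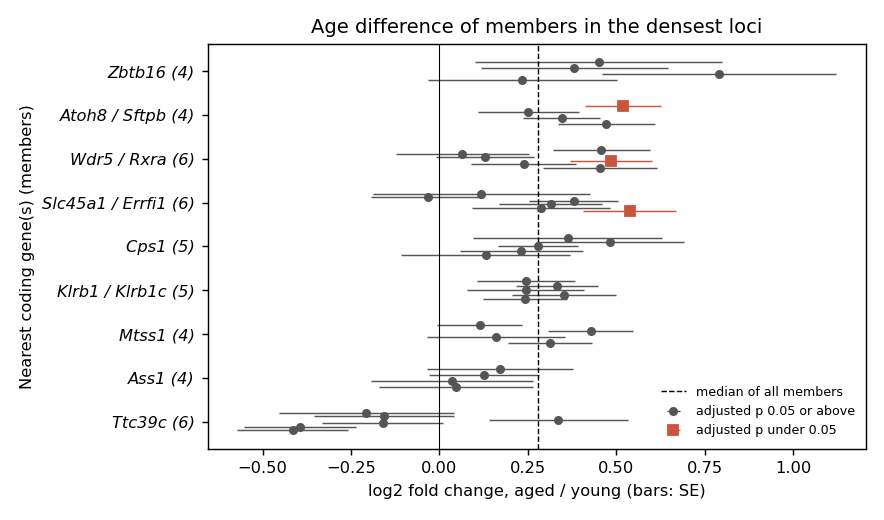
The log2 fold change of aged over young with its SE (x axis) for each member of the 9 loci with 4 or more members (y axis, named by nearest coding genes with the number of members), with squares for members that passed the test and a dashed line at the median of all members, 0.28. The Ttc39c locus lies mostly below 0, the Ass1 locus between 0 and the dashed line, and 3 of the 4 members of the Zbtb16 locus above it.

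The promoter region of the nearest coding gene could be measured for 539 members, at 440 promoters. Its median log2 fold change was 0.21. Of the 71 members among them that rose, 10 had a nearest promoter that also rose, 61 had one that did not pass the test and 0 had one that fell. Among members that reached the level in each age, 5 of the 45 that rose (11.1%) had a promoter that rose, beside 5.99% of the 384 that did not rise and 11.6% of all strong regions near a TSS, and the difference was not tested. The Scd1 and 5830473C10Rik regions are among these 5. Across the 539 pairs Pearson's r between both log2 fold changes was 0.18 and Spearman's rho 0.091, as a description over pairs that share the same 7 libraries.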

How the data were processed

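ATAC-seq was measured in 3 young and 4 aged liver samples. The authors deposited raw counts of reads per consensus region, with 1 column per library. Per the study's methods and the submitters' processing notes, the authors trimmed reads with cutadapt 1.13, aligned them to GRCm38 with Bowtie2 2.4.1, removed duplicate, mitochondrial and poorly mapped reads, called peaks per library with MACS2 2.2.7, kept regions with peaks in at least 2 libraries and counted reads with featureCounts. Removing poorly mapped reads lowers the counts of repeated sequence. All 7 columns were assigned by the name in each sample's description, and the numbers were not normalized. The counts carry no molecular identifiers, so their precision covers counting error only.

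CPM used to choose members were counts over column totals. TSS distances came from GENCODE M21. Every test was fitted on all 55680 regions with edgeR 4.0.16 in R 4.3.3 (TMM normalization, quasi-likelihood test, a design with age alone, Benjamini-Hochberg adjustment at 0.05), and values per sample are TMM-normalized CPM (prior count 2 on the log scale). The fit was tested on simulated data. Sequences and RefSeq starts were those of GRCm38.p6, read with samtools 1.23.1 and Python 3.11.15 (pandas 2.3.3, numpy 2.4.6, scipy 1.17.1). Near-identical copies (at least 80% of a region at 95% identity) were searched with minimap2 2.31 and mitochondrial matches with blastn 2.17.0. Figures were drawn with matplotlib 3.10.9. Alternatives used DESeq2 1.42.0, limma 3.58.1 (voom), other scalings, filters of low counts, loess offsets (span 0.3) on mean level and GC content, thinning of all libraries to the smallest, leaving out each sample, summing pairs of aged samples, a replicate block and other ways to choose members.

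The regions named are the 10 strongest members, the 10 largest increases and 10 largest decreases (2 existed) among members with an adjusted p under 0.05 and no overlap between ages, the 3 strongest members nearest to genes of each list, the members at the threshold and the loci of genes with the most members. The Arg1, Nr2f2, Irf2, Fgg and Serpina1e regions, the loci beyond that rule and the nearest promoters were chosen after their values were seen. A few regions that this rule names are not reported here. The members and the gene lists were chosen with earlier results of these data known.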

Additional observations from a re-analysis of the deposited data

Results flagged for a closer look

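In 5 of 53 groups of 4 aged samples examined (the regions named and 2 summary values), 1 sample lay far from the other 3 by Dixon's criterion at the 95% level, and chance alone gives about 1 in 20. The repeat region in 2700054A10Rik (nearest coding gene Tcte2) was high in aged replicate 4, at 121 CPM against 65.4 to 72.9 in the others. The Scd1 region was high in aged replicate 2, at 103 CPM against 77.0 to 80.8 CPM, so its increase was present in all 4 aged samples. The stronger of both Ppp1r3b regions, at chr8:35415021-35418365, was low in aged replicate 2, at 46.5 CPM against 92.8 to 95.7 CPM, and the lowest value lay within the range of the young samples (35.5 to 61.8 CPM). The stronger Dgat2 region was low in aged replicate 2 at 83.7 CPM, and the region nearest to Trib1, just below the threshold for members, was high in aged replicate 4 at 65.0 CPM.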

How the results depend on the processing

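The number of members that rose, 81, was 34 with total counts in regions and also with a minimum of 10 counts in every sample, 2 with offsets on mean level, 223 with offsets on GC content, 9 after thinning, 127 by limma voom, 162 by DESeq2 and 3 at a threshold of 0.01. With pairs of aged samples summed it was 20 (replicates 1 and 3), 44 (2 and 3), 42 (3 and 4) and 131 (2 and 4), and without single samples 3 to 111. The 3 that fell became 6 with offsets on mean level, 5 with aged replicates 2 and 4 summed, 0 at 0.01 and 1 to 4 without single samples. The median log2 fold change of 0.28 was 0.16 with total counts, 0.025 with offsets on mean level and 0.36 with offsets on GC content. Calls over all regions, 3198 in the reported fit, were 674 with offsets on mean level, 312 after thinning, 1327 with the count filter, 962 with aged replicates 1 and 3 summed, 1806 with 2 and 3 summed, 5633 with GC offsets and 173 at 0.01, and 188 to 4230 without single samples. DESeq2 gave 4691. The causes were not tested.

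With the replicate block (6 samples, without aged replicate 4) 72 members rose and 6 fell, with a median of 0.26. Deviations of samples with the same number correlated at −0.12, 0.056 and 0.030, so the numbers do not pair the samples.

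Ranking among distal regions alone gave 2761 members, of which 238 rose and 33 fell (median 0.21, a difference of −0.069 from strong regions near a TSS). TSSs of protein-coding transcripts gave 1053 members with 155 up and 9 down. Ranking per kb gave 539 members, 8 of which fell, and 232 were shared (38.2% of the members and 43.0% of the 539). With RefSeq starts 1 fell. Among members that reached the level in each age 52 rose and 1 fell.

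Directions that turned belonged to regions that did not pass the test. With offsets on mean level the log2 fold change was −0.50 near Errfi1, −0.41 and −0.27 at Ass1, −0.053 near Lars2, −0.13 near Trpm8, −0.24 near Gtpbp4, −0.13 near Ppara, −0.12 near Rxra, −0.17 near Ahsg, −0.23 and −0.19 near Dgat2, −0.14 near Cyp2e1, −0.014 near Slc7a2, −0.20 near Cry2, −0.058 near Tef, −0.014 near Klf11, −0.028 near Smad7, −0.15 at Cps1 and −0.11 near Gnpda1. With total counts it was −0.079 and −0.090 at Ass1, −0.029 near Dgat2, −0.053 near Cry2 and −0.026 near Gnpda1. With aged 1 and 4 summed it was −0.032 and −0.0046 at Ass1, 0.022 near Slco1b2, 0.041 near Hlf and −0.037 at Cps1, with 3 and 4 summed −0.059 and −0.087 at Ass1, with 1 and 3 summed −0.012 near Cyp2e1 and 0.018 near Slc22a7, with 1 and 2 summed 0.055 and with 2 and 3 summed 0.028 near Slc22a7, and with 2 and 4 summed 0.024 near Slco1b2. With the replicate block it was −0.23 and −0.17 at Ass1, 0.048 near Slco1b2, 0.11 near Hlf and −0.13 at Cps1. By limma voom it was −0.057 and −0.088 at Ass1 and 0.068 near Slc22a7, and by DESeq2 0.024 near Slc22a7 and 0.0092 near Hlf. With GC offsets it was 0.063 near Slc22a7, 0.019 near Slco1b2 and 0.087 near Hlf, after thinning 0.070 near Slc22a7, −0.011 at Ass1 and −0.12 near Cry2, and with the count filter −0.0072 at Ass1. Without single samples it ranged from −0.036 to 0.26 near Errfi1, −0.22 to 0.21 and −0.16 to 0.25 at Ass1, −0.0054 to 0.20 near Dgat2, −0.069 to 0.39 near Cyp2e1, −0.18 to 0.16 near Slc22a7, −0.22 to 0.076 near Slco1b2, −0.11 to 0.11 near Hlf, −0.039 to 0.12 near Cry2, −0.11 to 0.35 at Cps1 and −0.0038 to 0.23 near Gnpda1.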

Other observations

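Some members nearest to genes of secreted liver proteins varied widely between samples of one age. They were chosen after their values were seen. Only in aged samples did the region nearest to Fgg reach the level for members, and only in young samples the one nearest to Serpina1e. Each therefore had to be higher in that age to be a member. The region nearest to Fgg, which encodes the gamma chain of fibrinogen, measured 19.8, 16.6 and 67.4 CPM in young and 142, 28.6, 45.3 and 120.1 CPM in aged samples, with a log2 fold change of 1.38 ± 0.52 that did not pass the test (adjusted p = 0.12, edgeR). As in the Serpina3k region, aged replicates 1 and 4 were the highest and aged replicate 2 was the lowest aged sample. The region nearest to Serpina1e, a gene of the alpha-1-antitrypsin cluster, measured 71.6, 54.2 and 64.5 CPM in young and 60.7, 8.43, 14.9 and 50.4 CPM in aged samples. Here aged replicates 2 and 3 were low and aged replicates 1 and 4 were near the young samples. The log2 fold change was −0.84 ± 0.42 (adjusted p = 0.23, edgeR). These genes belong to families of similar copies, apart from Fgg, and how reads were shared between copies was not tested.

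The repeat region that fell was accompanied by another just below the threshold for members. A 4863 bp region at chr4:3079910-3084772, of which 51.0% is masked as repeats, measured 99.2, 102 and 36.2 CPM in young and 16.96, 19.0, 13.5 and 29.1 CPM in aged samples, and fell by 2.01 ± 0.30 on the log2 scale (adjusted p = 0.0069, edgeR). In both regions young replicate 3 was the lowest young sample and aged replicate 4 the highest aged sample.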
